A study of Saccharomyces cerevisiae with 4 samples.

Results

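The 67 genes described here encode proteins of the yeast mitochondrial ribosome, or carry its gene symbols. They are the open reading frames (ORFs) whose standard Saccharomyces cerevisiae symbol begins with MRPL, MRPS, MRP or RSM and continues with a digit, and they were taken from 6260 ORFs on the arrays. Of them 34 are MRPL genes, 9 are MRPS genes, 13 are MRP genes and 11 are RSM genes. By their known place in the ribosome, 38 encode large-subunit proteins and 27 encode small-subunit proteins. The other 2 fit the symbols but not the label. MRP8 encodes a protein that is not known as a ribosomal subunit, and RSM22 encodes a methyltransferase-like protein that takes part in assembly of the small subunit.

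The study measured RNA of 4 knockout strains, named after the lost transcription factor gene: MET28, CBF1, MET31 and MET32. Wild-type RNA was the second channel of each 2-colour array, and the wild type of the met28 and cbf1 arrays is labelled "wt+met" while that of the met31 and met32 arrays is labelled "wt". Cultures of all strains came from colonies on YPD plates with G418 and were harvested from defined YNB medium at 30 °C once the OD600, a measure of cell density, stood at 0.8 to 1.0. At least 2 biological samples per strain are mentioned in the labels, but each strain has 1 column of values, so n = 1 for every value below, no difference has a replicate check, and no p-value or standard error can be given.

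Mitochondria carry their own ribosome, which descends from that of their bacterial ancestor and translates the few proteins that the mitochondrial genome still encodes, mainly core subunits of the respiratory chain and ATP synthase. In yeast all but one of its proteins, Var1, are encoded in the nucleus, made in the cytosol and imported. Many belong to families that bacterial ribosomes share, and others are found only in mitochondria. Standard family names tell these apart, with u and b for families shared with bacteria and m for mitochondria-specific proteins, followed by L for the large subunit and S for the small. Cbf1, Met28, Met31 and Met32 are cofactors of Met4, the activator of sulfur amino acid genes, and mitochondrial ribosomal proteins are not among its classical targets.

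Values are the deposited signed log ratios, whose base is not given in the sources used here. The likely direction is deletion strain over wild type, because the deleted gene was far below 0 on 3 of the 4 arrays. MET28 was at -1.294 on the met28 array, CBF1 at -0.995 on the cbf1 array and MET31 at -0.32 on the met31 array. On the array labelled met32, MET32 stood at 0.012, so this array gave no sign of the deletion and has no settled direction. An exact 0 was treated as not measured, which left 5242 measured ORFs on the met28 array, 5383 on cbf1, 5893 on met31 and 5882 on met32.

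The mitochondrial ribosomal protein genes were measured nearly completely. They were listed at 0 in 9 of their 268 values (3.36%), against 2640 of 25040 (10.5%) over all ORFs. All 4 arrays gave a value for 62 of them and 3 arrays for another 3. MRP17, a small-subunit protein of family bS6, was measured on the met32 array alone, at -0.009, as was MRPL40, a large-subunit protein of family uL24, at 0.011. MRPL15 was listed at 0 on the met28 array, and MRP21 and MRPL36 on the met32 array. The last 2 lie on chromosome II, where 193 of the 390 ORFs with a RefSeq entry were at 0 on that array, and the 5 other members on this chromosome had values there.

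The medians of the group were near those of the whole arrays. The members' median was -0.015 on the met28 array against 0.0015 for all measured ORFs, -0.027 against -0.034 on cbf1, 0.003 against -0.002 on met31 and 0.001 against -0.002 on met32. The middle 50% of the members spanned 0.0948, 0.145, 0.058 and 0.056 on the met28, cbf1, met31 and met32 arrays, and the middle 50% of all measured ORFs spanned 0.106, 0.148, 0.07 and 0.081.

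**Figure D1:**
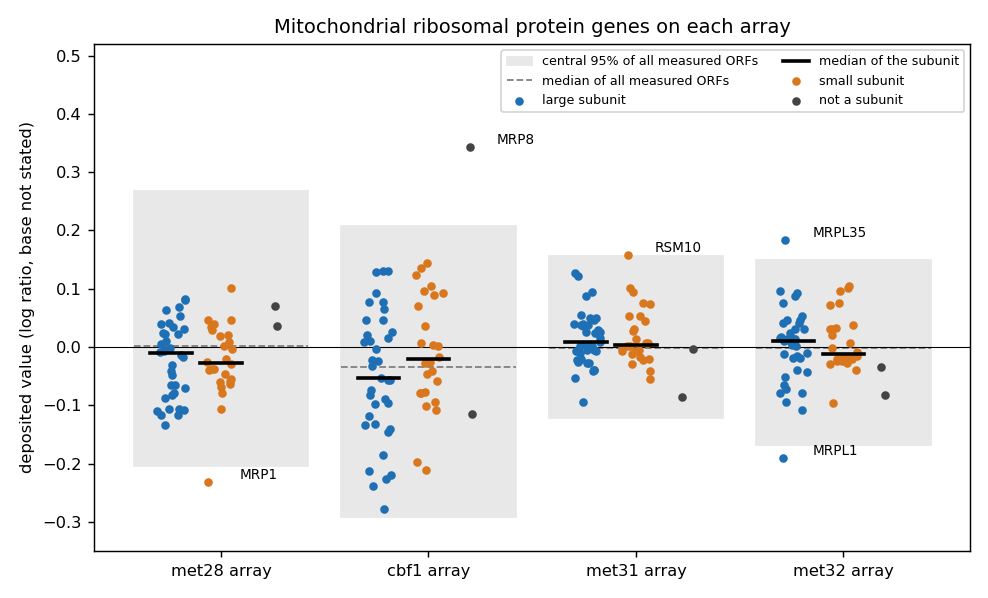
Deposited log ratio (vertical axis, base not stated) of each measured member on the 4 arrays; blue points are large-subunit genes, orange points small-subunit genes and dark points MRP8 and RSM22. Grey boxes show the central 95% of all measured ORFs of an array, dashed lines their median and black bars the median of each subunit. Nearly all points lie inside the boxes, and the 5 that do not are named.

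Few members lay among the extreme values. The tails of an array are here the 2.5% of measured ORFs with the highest values and the 2.5% with the lowest. On the met28 array 1 of 64 measured members was in the low tail, which held 2.54% of all measured ORFs, and 0 were in the high tail, which held 2.52%. On the cbf1 array 0 of 65 were in the low tail (2.51% of all ORFs) and 1 was in the high tail (2.51%). On the met31 array 0 of 65 were in the low tail (2.55%) and 1 was in the high tail (2.51%). On the met32 array 1 of 65 was in the low tail (2.52%) and 1 in the high tail (2.58%). These counts of 0 or 1 give shares below those of all ORFs, so the tails set the members apart on none of the arrays.

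The 5 genes in a tail were a different gene each time. MRP1, a mitochondria-specific small-subunit protein (mS43), was at -0.232 on the met28 array, -0.102 on cbf1, 0.028 on met31 and -0.017 on met32. MRP8 was at 0.071, 0.343, -0.085 and -0.035 in the same order of arrays, with its tail value on cbf1. RSM10, a small-subunit protein of family uS10, was at 0.029, -0.211, 0.158 and 0.03, with its tail value on met31. The RSM10 value lay just inside the limit of that tail, which was 0.156, whereas the MRP8 value was well past the cbf1 limit of 0.207. MRPL1 (uL1), part of the mobile stalk beside the exit site for spent tRNA, was at 0.064, -0.096, -0.04 and -0.19, and MRPL35 (mL38), a mitochondria-specific large-subunit protein, at -0.041, -0.213, 0.002 and 0.184. Both had their tail value on the met32 array, on opposite sides, and these sides would change places with the sign of that array turned.

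If the values are log10 ratios, the MRP8 value on the cbf1 array is a 2.20-fold difference, and if they are log2 ratios it is 1.27-fold. The corresponding readings are 1.71-fold or 1.17-fold below the reference for MRP1 on the met28 array and 1.44-fold or 1.12-fold above it for RSM10 on the met31 array. The member farthest from 0 on the cbf1 array was thus MRP8, the gene that is not a ribosomal subunit, and 0 of the 63 measured subunit genes were in either tail there. The measured genes directly beside these 5 members were in neither tail of the array concerned. PAL1 and SVF1, which flank MRP1, were at -0.024 and -0.044 on the met28 array. SDH3, beside MRP8, was at -0.005 on the cbf1 array, and LTV1, on the other side, was listed at 0 there. ENA1, beside RSM10, was at -0.041 on the met31 array, and YDR042C, on the other side, was listed at 0. MRX14 and TMA64, beside MRPL1, were also low on the met32 array, at -0.118 and -0.138, short of the tail limit of -0.168. ASP1 and TIM11, beside MRPL35, were at -0.147 and -0.063 on that array, below 0 where MRPL35 was above it. No member is directly beside any of the 4 deleted genes in the gene order.

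Where the bulk of the members lay differed in a modest way between arrays. On the met28 array 38 of 64 members (59.4%) were below 0, against 49.3% of all measured ORFs. On the cbf1 array 38 of 65 (58.5%) were below 0, against 62.9%. On the met31 array 28 of 65 (43.1%) and on the met32 array 32 of 65 (49.2%) were below 0, against 51.7% and 51.2%. The members were thus more often below 0 than the array on met28 and less often on met31, with cbf1 and met32 nearer to their arrays.

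Dividing each array by rank cut the same values in another way, so it is no second observation. On the met28 array 21 of 64 members (32.8%) were in the lowest 25%, which held 25% of all ORFs, and 6 (9.38%) were in the highest 25%, which held 25.3%. On the met31 array 8 of 65 (12.3%) were in the lowest 25% (25.4% of all ORFs) and 21 (32.3%) in the highest (25.5%). On the cbf1 array the lowest 25% (25.2% of all ORFs) had 14 of 65 members (21.5%) and the highest (25.2%) had 18 (27.7%). On the met32 array the lowest (25.1%) had 11 (16.9%) and the highest (25.5%) had 16 (24.6%). The members were thus scarce among the higher values of the met28 array and among the lower values of the met31 array. To a lesser degree they were also fewer in the lowest 25% of the met32 array (16.9% against 25.1%), whose direction is not settled. With an exact 0 taken as a value, the count in the highest 25% of the met28 array is 10 in place of 6. Some lists of like function had similar shares, and others did not. In the highest 25% of the met28 array were 10 of 134 measured cytosolic ribosomal protein genes (7.46%), 1 of 31 respiratory chain and ATP synthase genes (3.23%) and 0 of 12 mitochondrial ribosome genes with other symbols. Shares there were higher for mitochondrial translational activators (2 of 16, 12.5%), aminoacyl-tRNA synthetases (2 of 13, 15.4%) and ribosome assembly genes (1 of 5, 20%). They were also higher for mitochondrial translation factors (2 of 6, 33.3%) and RNA polymerase (1 of 2, 50%). In the lowest 25% of the met31 array were 12 of 134 cytosolic ribosomal protein genes (8.96%), 0 of 7 assembly genes, 1 of 9 translation factors (11.1%) and 5 of 32 respiratory chain genes (15.6%). Shares there were higher for synthetases (4 of 14, 28.6%), mitochondrial ribosome genes with other symbols (4 of 12, 33.3%) and translational activators (6 of 17, 35.3%). Of the mitochondrial RNA polymerase genes 1 of 2 was there. The cut at 25% was chosen after the data were seen, and genes of a ribosome are not independent replicates, so these shares describe single arrays.

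**Figure D2:**
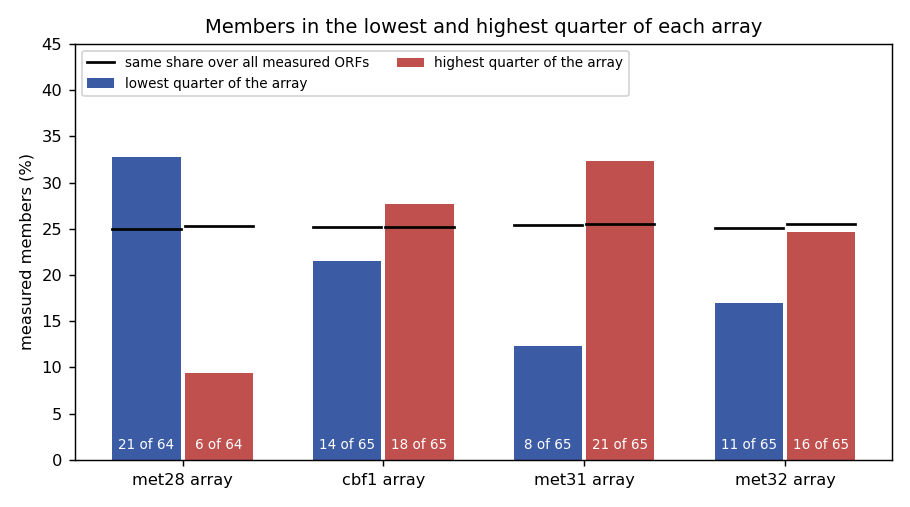
Share of measured members (%, vertical axis) in the lowest 25% (blue) and the highest 25% (red) of the values of each array, with counts in the bars. Black lines mark the same share over all measured ORFs, between 25% and 25.5%, and the bar farthest below its line is that for the highest values on the met28 array, at 6 of 64 members.

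The large subunit holds the peptidyl transferase centre, where peptide bonds form. Its 36 measured members on the met28 array had a median of -0.011, and the 37 measured on each of the other arrays had medians of -0.054 on cbf1, 0.008 on met31 and 0.011 on met32. The small subunit binds the mRNA and reads the codon. Its 26 measured members on each array had medians of -0.028 on met28 and -0.021 on cbf1, with 0.004 on met31 and -0.012 on met32. The largest gap between subunits, on the cbf1 array, was 0.033, with the small subunit higher, and the middle 50% of each subunit spanned 0.158 and 0.164 there. On that array the lowest 25% held 11 of 37 large-subunit genes (29.7%) and 2 of 26 small-subunit genes (7.69%), against 25.2% of all ORFs, and the highest 25% held 9 (24.3%) and 8 (30.8%), also against 25.2%. With the array centred on its median of -0.034, the small-subunit median would be 0.013. No test of the difference between subunits is possible with 1 column per strain.

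Among the 24 members that encode large-subunit proteins shared with bacteria, the lowest values were on the cbf1 array. Subunits with other symbols are left out of the classes described here and come further below. MRPL38 (uL14), which sits at the face that joins the small subunit, was at -0.117 on the met28 array, -0.278 on cbf1, -0.042 on met31 and 0.001 on met32. Its cbf1 value was the lowest of all members there and just outside the low tail, whose limit was -0.291. MRPL22 (uL22), which lines the tunnel through which the new protein leaves, was at 0.011, -0.22, 0.121 and 0.014 in the same order. It was thus among the lowest members on cbf1 and among the highest on met31. MRPL19 (uL11), at the base of the stalk that binds translation factors, was at 0.069, -0.134, 0.04 and -0.019, and MRPL36 (bL31) was at -0.071 on met28, -0.133 on cbf1 and -0.007 on met31.

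Other bacterial-type large-subunit genes lay above 0 on the cbf1 array. MRPL23 (uL13) was at 0.054 on met28 and 0.131 on cbf1, with 0.127 on met31 and 0.053 on met32, above 0 on each array. MRP7 (bL27), which reaches towards the peptidyl transferase centre, was at -0.108, 0.13, 0.015 and -0.019 in the same order. MRPL16 (uL16) was at 0.035, 0.129, 0.001 and -0.016. None of these 3 genes was in a tail on any array, and the 23 measured genes of the class on cbf1 ran from -0.278 to 0.131 with a median of -0.022.

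On the met31 array 11 of the 23 measured genes of this class (47.8%) were in the highest 25%, which held 25.5% of all ORFs, and the median of the class was 0.026. This was the largest such share of any subunit class on any array, at a cut chosen after the data were seen. In the same part of met31 were 2 of 14 mitochondria-specific large-subunit genes (14.3%). The small-subunit genes there were 5 of 16 shared with bacteria (31.25%) and 3 of 10 mitochondria-specific ones (30%). MRPL7 (uL5), of the central protuberance, was at 0.095 there, with -0.106 on met28, -0.098 on cbf1 and 0.096 on met32. At the other end MRPL4 (uL29), at the exit of the tunnel, was at -0.095 on met31, the lowest of all members on that array, with 0.022 on met28, -0.003 on cbf1 and -0.043 on met32. MRPL24 (bL28) was the lowest of the class on met28, at -0.134, and was at -0.056 on cbf1, 0.026 on met31 and -0.072 on met32. MRPL49 (bL21) was at 0.081, -0.032, 0.05 and 0.076 on met28, cbf1, met31 and met32. MRPL32 (bL32), which the inner-membrane m-AAA protease matures before it joins the ribosome, was at 0.023, 0.047, 0.026 and 0.093. MRPL10 (uL15) was at 0.042, 0.025, 0.024 and -0.094. These genes stayed within the tails' limits on every array.

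The 14 mitochondria-specific large-subunit members had the lowest median of the 4 subunit classes on the cbf1 array, -0.078 against -0.034 for all ORFs. Of the 14, 10 (71.4%) were below 0, against 62.9% of all ORFs, and 6 (42.9%) were in the lowest 25%, against 25.2%. On the met28, met31 and met32 arrays their medians were -0.007, -0.006 and 0.0155. MRPL37 (mL54) was at 0.083 on met28 and -0.239 on cbf1, with -0.054 on met31 and 0.041 on met32. MRPL28 (mL40) was at -0.004, -0.227, -0.04 and 0.031, MRPL25 (mL59) at -0.001, -0.186, -0.005 and 0.017, and MRPL31 (mL60) at -0.007, -0.146, -0.007 and 0.014. Together with MRPL35 these genes had lower values on cbf1, whose values were also the most widely spread, than on the other arrays, where MRPL25, MRPL28 and MRPL31 were within 0.04 of 0. All of them were nevertheless inside the central 95% of the cbf1 array, which ran from -0.291 to 0.207.

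The rest of the class varied around 0. MRPL15 (mL57) was at -0.14 on cbf1, 0.029 on met31 and -0.079 on met32. MRPL3 (mL44), which like MRPL15 has a fold related to RNase III, was at 0.024 on met28 and -0.082 on cbf1, with -0.027 on met31 and -0.108 on met32. MRPL17 (mL46) was at -0.11, -0.054, 0.003 and 0.03, and MRP49 (mL61) at -0.117, 0.011, 0.038 and 0.01, so that both were among the 6 lowest members on the met28 array alone. MRPL20 (mL58) had the highest value of the class on cbf1, at 0.066, with -0.083 on met28, 0.087 on met31 and -0.039 on met32.

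**Figure D3:**
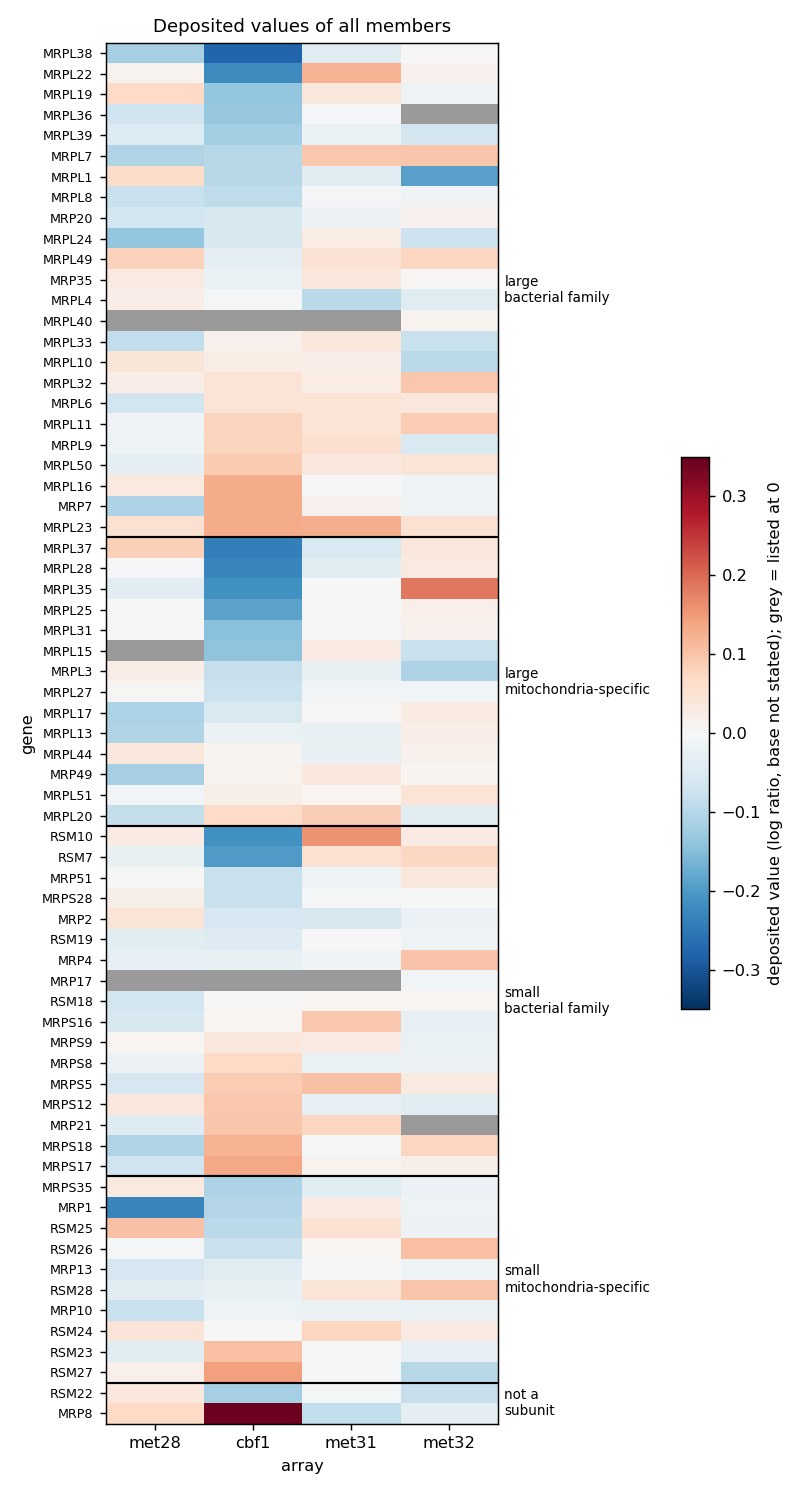
Deposited log ratio (colour, base not stated) of all 67 members on the 4 arrays, with genes grouped by subunit and by bacterial or mitochondria-specific family and ordered by their cbf1 value; grey marks a listed 0. The strongest colours are on the cbf1 array, from -0.278 for MRPL38 to 0.343 for MRP8, and each class holds genes on both sides of 0 there.

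Among the 17 small-subunit members shared with bacteria, medians were -0.028 on the met28 array, 0.005 on cbf1, 0.0025 on met31 and 0.002 on met32. RSM10 and RSM7 were low on cbf1 and above 0 on met31. RSM7 (uS7), which organises the head of the subunit, was at -0.026 on met28 and -0.198 on cbf1, with 0.053 on met31 and 0.072 on met32. The next lowest values of the class on cbf1 were -0.079 for both MRPS28 (uS15) and MRP51 (bS1), so a gap separated RSM10 and RSM7 from its other members. SWS2, a small-subunit protein gene outside the symbol rule, was lower than both on cbf1, at -0.28. On the high side of cbf1, MRPS17 (uS17) was at -0.069, 0.136, 0.013 and 0.02 in the same order of arrays.

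Further members of this class reached the ends of the ranking on single arrays. MRPS5 (uS5), at the entrance for mRNA, was at -0.058 on met28 and 0.09 on cbf1, with 0.102 on met31 and 0.032 on met32, and MRPS16 (bS16) at -0.055, 0.006, 0.094 and -0.029. MRP2 (uS14) was at 0.046, -0.058, -0.055 and -0.02, and MRP4 (uS2) at -0.03, -0.025, -0.012 and 0.101. RSM19 (uS19) and MRPS12 (uS12), a protein of the decoding centre, are the only members that are direct neighbours in the gene order. RSM19 was at -0.037, -0.046, -0.002 and -0.018, and MRPS12 at 0.039, 0.093, -0.03 and -0.039, so these neighbours were on opposite sides of 0 on the met28 and cbf1 arrays.

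The 10 mitochondria-specific small-subunit members had medians of -0.0205 on the met28 array, -0.034 on cbf1, 0.004 on met31 and -0.0185 on met32. RSM25 (mS23) was the highest of all members on met28, at 0.102, with -0.095 on cbf1, 0.053 on met31 and -0.02 on met32. RSM27 (mS33) was the highest subunit gene on cbf1, at 0.144, with 0.019 on met28, -0.006 on met31 and -0.096 on met32. RSM26 (mS42) and RSM28 (mS46) were at 0.105 and 0.096 on met32, and MRPS35 (mS45) was at -0.042 on met31. MRP10 (mS37), a twin-cysteine-motif protein that the intermembrane-space import machinery handles, was at -0.079, -0.017, -0.021 and -0.024, and RSM24 (mS35) at 0.046, 0.001, 0.074 and 0.03.

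Some members kept to the same side of 0 on all 4 arrays. Besides MRP10, RSM19, MRPL23, MRPL32 and RSM24, these were MRPL39 (bL33), at -0.048 on met28 and -0.119 on cbf1, with -0.023 on met31 and -0.065 on met32, and MRPL8 (bL17), at -0.079, -0.089, -0.006 and -0.012. The met28 and cbf1 arrays carry the same reference label, as do met31 and met32, and the met32 direction is not settled, so these values are given side by side only. RSM22, of the genes outside the ribosome itself, was at 0.036 on met28 and -0.115 on cbf1, with -0.003 on met31 and -0.082 on met32.

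The mitochondrial ribosome also has subunits with other symbols, 13 of which were listed for comparison. They are IMG1, IMG2, MNP1, RML2, YML6, MHR1, RTC6, MRX14, NAM9, PET123, SWS2, FYV4 and EHD3. Their medians were -0.0365 on the met28 array, -0.093 on cbf1, -0.0105 on met31 and -0.009 on met32, and 10 of 13 (76.9%) were below 0 on cbf1, against 62.9% of all ORFs. SWS2, a small-subunit protein, was at -0.28 and MRX14, a large-subunit protein, at -0.246 on cbf1, and MRX14 was also in the low tail of the met28 array at -0.207. MRX14 is a neighbour of MRPL1, which was at 0.064 on met28 and -0.096 on cbf1. With these genes and without MRP8 and RSM22 the ribosome had 78 listed subunits, whose medians were -0.0185, -0.0435, 0.003 and -0.0005 on met28, cbf1, met31 and met32. Adding them moved the median on cbf1 from above that of all ORFs (-0.034) to below it.

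Other genes of mitochondrial translation were set beside the ribosome. The 14 aminoacyl-tRNA synthetases, which load amino acids on tRNAs, had medians of -0.07 on the met28 array and -0.1185 on cbf1, with 10 of 13 (76.9%) and 11 of 12 (91.7%) measured genes below 0, against 49.3% and 62.9% of all ORFs. MSF1, for phenylalanine, was in the low tail of cbf1 at -0.293 and MSD1, for aspartate, in that of met28 at -0.262. On met31 and met32 the medians were 0.001 and 0.0045. Among 9 translation factors, the initiation factor gene IFM1 was at 0.357 and the factor gene MEF2 at 0.328 on met28, both in the high tail, and at -0.193 and -0.104 on cbf1. The list's medians were 0.0015 on met28 and -0.0255 on cbf1, with 0.009 on met31 and -0.0205 on met32.

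Of 7 genes for ribosome assembly, the GTPase gene MTG1 was in the low tail of met28 at -0.26 and the GTPase gene MTG2 in the high tail of cbf1 at 0.339, and MAM33 was in the high tail of met32 at 0.175. Medians were 0.011, -0.114, -0.012 and -0.002 on met28, cbf1, met31 and met32, from 5 measured genes on each of the first 2 arrays. Of 17 translational activators and related proteins, which help the ribosome onto single mitochondrial mRNAs, MSS51, for COX1, was in the low tail of cbf1 at -0.363. AEP1 was in the low tail of met28 at -0.275, CBP3 in the high tail of cbf1 at 0.209 and CBP1 in that of met32 at 0.181. Medians were -0.018, -0.0605, -0.022 and -0.023. For the RNA polymerase that transcribes the mitochondrial genome, RPO41 was at -0.027, -0.123, -0.053 and 0.133, and its partner MTF1 at 0.282, -0.182, -0.034 and -0.001, the first of these in the high tail of met28.

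**Figure D4:**
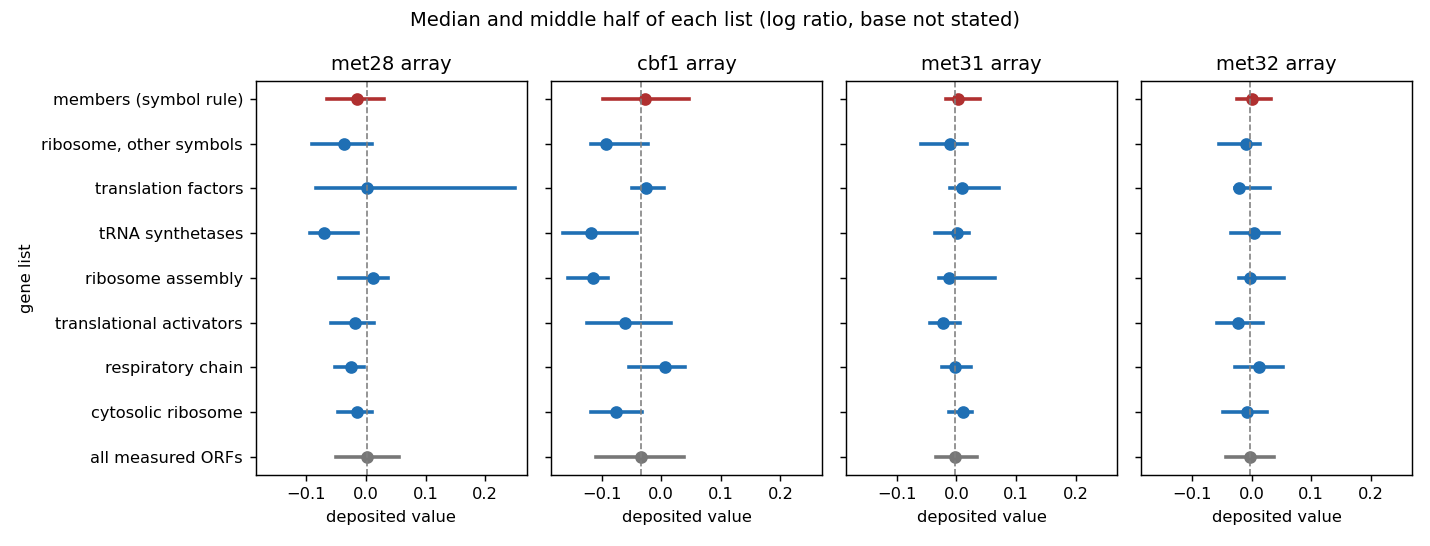
Median (points) and middle 50% (lines) of the deposited log ratio (horizontal axis, base not stated) for the members, for 7 lists of related genes and for all measured ORFs, with 1 panel per array; dashed lines mark the median of all ORFs. The members, in red, are close to the dashed line on every array, and on the cbf1 array the tRNA synthetases (-0.1185) and assembly genes (-0.114) have the lowest medians of the lists drawn, which leave out the 2 genes of mitochondrial RNA polymerase.

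Most products of mitochondrial translation join complexes of the respiratory chain and ATP synthase. A list of 34 nuclear genes of that system, which includes succinate dehydrogenase and cytochrome c, had medians of -0.025 on met28 and 0.006 on cbf1, with -0.003 on met31 and 0.012 on met32. The cytosolic ribosome makes all other proteins of the cell, and its 137 genes had medians of -0.0145 on met28 and -0.075 on cbf1, with 0.0115 on met31 and -0.008 on met32. On the cbf1 array 115 of 135 measured cytosolic genes (85.2%) were below 0, against 62.9% of all ORFs and 38 of 65 (58.5%) of the mitochondrial ribosomal protein genes. The mitochondrial share was thus near that of the array. The middle 50% spanned 0.085 for the cytosolic genes and 0.145 for the mitochondrial ones on that array. On the met28 array the medians of both ribosomes, -0.0145 and -0.015, were nearly equal. Whether these lists differ could not be tested with 1 column per strain.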

How the data were processed

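The deposited table holds 1 signed value per ORF and strain, with at most 3 decimals, treated here as a score without a stated scale and read as a log ratio of the 2 channels. Per the labels, hot-phenol RNA was copied to cDNA that incorporated Cy3 or Cy5. How the authors took logs, centred, corrected background, handled dye swaps and averaged samples is not given in the sources used here. Intensities were not used here, and the number of arrays limits the precision.

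Gene symbols were read from RefSeq's R64 table, which lists 5774 of the 6260 ORFs; gene order was used for neighbours only. Medians, counts and ranks were computed per array over measured ORFs with Python 3.11.15, pandas 2.3.3 and numpy 2.4.6, and the code was tested on shuffled values with planted shifts. Members and gene lists were chosen with earlier results of these data known, and MRP35 was added to the large subunit after the table was seen. Named members include the 6 highest and 6 lowest per array, those in a tail and those listed at 0 on 3 arrays. MRPL15 and MRPL33 tied for the last of the 6 lowest places on met32, at -0.079, and MRPL33 is named only here. Those on the same side of 0 on all arrays and those outside the ribosome are named too. Some others meet none of these rules. MRPL20, MRPL25, MRPL31, RSM7, MRPS28 and MRP51 were named for their cbf1 values, MRP21 and MRPL36 for a listed 0, and MRPS12 as a neighbour of RSM19. A planned search for Cbf1 and Met31 motifs was not run, since promoter sequences were not used here. Alternatives were other tails, folds, centring, scaling, means, treatment of 0 and member sets.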

Additional observations from a re-analysis of the deposited data

Results flagged for a closer look

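The small-subunit medians lay on opposite sides of 0 on the met31 and met32 arrays, which carry the same reference label, at 0.004 and -0.012. The difference was not tested, each strain has 1 column of values, and the side on met32 would change with its sign turned.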

How the results depend on the processing

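No paired analysis was possible because each strain has 1 column. Without replicates no spread is at hand to judge changes of medians and shares, so changes of side are given. Median centring turned the cbf1 median from -0.027 to 0.007, the cbf1 small-subunit median from -0.021 to 0.013 and the cbf1 share below 0 from 58.5% to 47.7%. With the sign of met32 turned, its median went from 0.001 to -0.001 and its share below 0 from 49.2% to 50.8%. The met32 median was 0, on neither side, when a listed 0 counted as a value. No other median or share below 0 changed side under the alternatives run. Counts in the tails are 0 or 1, so small changes move them. Without MRP8 and RSM22 the high tail of cbf1 held 0 members. With 0 counted as a value the low tail of cbf1 held 1, and the highest 25% of met28 held 10 in place of 6. With 5% tails the low tail of cbf1 held 2 of 65 measured members and the high tail of met31 held 3 of 65. Each such tail holds about 5% of all measured ORFs. With 1% tails the count was 0 in the low tail of met28, the high tail of met31 and both tails of met32. At 1.5-fold on a log10 scale 8 of 65 measured members were low on cbf1 and 0 of 65 were high on met31. The highest of these 8, MRPL25 at -0.186, had 9.31% of the measured ORFs of the cbf1 array below it. Shares of all ORFs past the fold limits were not computed, so these counts have none beside them and do not set the members apart from the array. At 2-fold on a log10 scale, and at 1.5-fold or 2-fold on a log2 scale, 0 were low on met28, 0 were high on met31 and 0 were in either direction on met32; on the log2 scale 0 were also high on cbf1. The planned comparison of promoter windows was not run.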
